A study of Homo sapiens with 9 samples.

Results

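The genes described here are 10 genes of the unfolded protein response and the integrated stress response: HSPA5, DDIT3, ATF3, ATF4, XBP1, HERPUD1, TRIB3, ASNS, CHAC1 and DNAJB9. They were taken by name from the 31033 gene names of the array, and 16 of its 50238 probes carry these names. HSPA5, ATF3, ATF4, XBP1, TRIB3 and ASNS each had 2 probes and the other genes 1. All 16 probes were well above background on all 9 arrays, so that no member was lost to the filter on dim probes.

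RNA was measured in DLD1 cells, a human colorectal adenocarcinoma line, with 9 single-colour Agilent arrays, each hybridised with RNA from a culture of its own. The groups were 3 untreated Control cultures, 3 Lamin A/C Kd cultures and 3 Lamin B2 Kd cultures. Each knockdown was made with 100 nM siRNA for 48 h against the A-type lamin gene LMNA or against LMNB2, and all 9 cultures were of the same line. No array came from cells given a control siRNA, so that transfection and loss of the lamin cannot be told apart against Control. In RNA from whole cultures, fewer cells that express a gene and less RNA per cell cannot be told apart.

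When proteins misfold in the endoplasmic reticulum (ER), the chaperone HSPA5 is drawn away from the stress sensors of the ER membrane. The sensor IRE1 then splices the XBP1 mRNA, ATF6 is cut to a free transcription factor by the proteases MBTPS1 and MBTPS2, and PERK phosphorylates the initiation factor eIF2 alpha. The kinases for amino acid shortage, viral RNA and haem shortage phosphorylate the same factor, and this common arm is the integrated stress response. It slows protein synthesis while translation of ATF4 increases, and ATF4 then drives genes for amino acid supply, together with DDIT3 (CHOP), ATF3, TRIB3 and CHAC1. An array reads the amount of mRNA, so that translation of ATF4 and splicing of XBP1 were not measured.

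The promoters of the members were searched for the letters these factors are known to bind. The stretches that hold a match are shown because several members share the same letters. Whether mRNA levels differ by motif was not tested. All sequences are from RefSeq on GRCh38.p14, in windows of 300 bases from 250 bases before to 50 bases after an annotated start site. All 10 members had a window, and 6 of their 17 windows held a match to at least 1 of the motifs searched on both strands. The motifs were TGATGNAA (ATF4 and C/EBP composite site), the ER stress response element (CCAAT, any 9 bases, CCACG), the ER stress response element II (ATTGG, any 1 base, CCACG), TGACGTGG (unfolded protein response element) and TGACGTCA (cyclic AMP response element). Each stretch runs 5′ to 3′ on the strand of the gene, capitals mark the matched letters, and 25 bases are shown on either side.
HSPA5: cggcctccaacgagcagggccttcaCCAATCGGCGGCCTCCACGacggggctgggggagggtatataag
XBP1: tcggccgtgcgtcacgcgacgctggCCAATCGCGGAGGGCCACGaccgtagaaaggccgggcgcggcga
HERPUD1: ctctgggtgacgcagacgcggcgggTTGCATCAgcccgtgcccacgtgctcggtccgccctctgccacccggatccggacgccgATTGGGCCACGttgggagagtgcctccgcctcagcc
ASNS: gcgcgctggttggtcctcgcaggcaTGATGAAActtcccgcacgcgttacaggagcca
CHAC1: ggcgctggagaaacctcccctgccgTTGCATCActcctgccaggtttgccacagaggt
ATF3: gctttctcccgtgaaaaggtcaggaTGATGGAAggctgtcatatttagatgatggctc

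The ER stress response element stood at 66 to 48 bases before the start site of HSPA5 (chr9:125241366-125241434, minus strand, for the stretch shown) and at 52 to 34 bases before that of XBP1 (chr22:28800578-28800646, minus strand). Of all 35116 promoter windows, 0.0769% held it. The ER stress response element II was found in HERPUD1 (chr16:56931941-56932060, plus strand), from 117 bases before the start site, and in 0.0541% of all windows. HERPUD1 also held the composite site on the opposite strand, at 176 to 169 bases. The composite site was in 3.62% of all windows, and among the members also in ASNS (chr7:97872444-97872501, minus strand), CHAC1 (chr15:40953237-40953294, plus strand) and ATF3 (chr1:212565191-212565248, plus strand). It lay 68 to 61 bases before the start site in ASNS, 209 to 202 in CHAC1, on the opposite strand, and 191 to 184 in ATF3. XBP1, ASNS and ATF3 each also had a window at another annotated start site, which held no match. The unfolded protein response element (0.729% of all windows) and the cyclic AMP response element (1.85%) were in no member window. DNAJB9, TRIB3, DDIT3 and ATF4 had no match, which says only that these letters are not in these windows. No 2 of the matches overlapped.

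The labels were checked first. LMNA lay between 4.84 and 5.14 on the Lamin A/C Kd arrays against 8.79 to 8.91 in Control, a log2 fold change of -3.83. LMNB2 lay between 3.1 and 3.48 on the Lamin B2 Kd arrays against 5.44 to 5.74, a log2 fold change of -2.32. All levels are log2 signals relative to the median of the array, and a difference of 1 on this scale is a doubling. Of 10 colon epithelial markers, 9 were above background on all 9 arrays, and CDX1 was on 7. KRT20 and CDX1 were dim, at group means of -1.53 to -0.86 and -1.32 to -0.71. VIL1 was at a mean of 3.23 in Control, 2.64 upon Lamin A/C Kd and 2.17 upon Lamin B2 Kd. In the latter, 5 of the 10 markers were above Control and 5 below. Of 10 markers of other cell types, VIM, PECAM1, CD3E and CD68 were above background on all 9 arrays at group means of -1.06 to 1.09, and ALB on 0. The arrays gave 65.6 to 74.1% of spots well above background. Lamin B2 Kd replicate 3 stood apart: it was the only array of a 2nd slide, its values carry 3 significant digits, and its signals lack the correction for spatial trends that the other 8 arrays have. Its probes deviated from the group mean with an SD of 0.366, against 0.168 to 0.261 on the other arrays. Lamin B2 Kd results are therefore also given without it, which is the value within the slide that holds all 3 groups. Without that array the share of all genes that passed went from 8.83 to 20.8% upon Lamin A/C Kd, from 4.33 to 4.61% upon Lamin B2 Kd and from 15.6 to 19.0% between the knockdowns.

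Upon Lamin A/C Kd, XBP1 and DNAJB9 rose and no member fell. These 2 of 10 members passed the test at an adjusted p under 0.05 (limma, 3 arrays per group, adjusted over all probes tested), where 3.14% of all 21868 genes tested passed with a higher level, 5.7% with a lower level and 8.83% in either direction. None reached the criterion of the methods, at least a 2-fold change with an unadjusted p under 0.05, which 2.2% of all genes met. The median log2 fold change of the 10 members was 0.13, against -0.04 over all genes tested.

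XBP1, the transcription factor activated through IRE1, was 7.34, 7.34 and 7.44 in Control and 7.90, 8.15 and 8.06 upon Lamin A/C Kd. Every knockdown array was above every Control array. The log2 fold change was 0.67 ± 0.12 (SE, n = 3 per group, limma adjusted p = 0.0134), a 1.59-fold rise. The second XBP1 probe, which is dimmer, moved alike, from 2.77, 2.64 and 2.74 to 3.19, 3.46 and 3.34, with a log2 fold change of 0.62 ± 0.14 (limma adjusted p = 0.0272).

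DNAJB9 (ERdj4), a co-chaperone of HSPA5 and a known XBP1 target, was 3.82, 3.81 and 3.78 in Control and 4.44, 4.28 and 4.58 upon Lamin A/C Kd. The groups did not overlap, and the Control arrays differed by far less than the knockdown arrays among themselves. The log2 fold change was 0.63 ± 0.12 (SE, n = 3 per group, limma adjusted p = 0.0135), a 1.55-fold rise. Both calls rest on all 3 Control arrays. Without Control replicate 1, 2 or 3, XBP1 stayed at 0.65, 0.65 and 0.70 with limma adjusted p of 0.0677, 0.0596 and 0.0517, and DNAJB9 at 0.64, 0.63 and 0.62 with 0.0627, 0.0568 and 0.0664. XBP1 also missed the threshold without Lamin A/C Kd replicate 2 (0.61, limma adjusted p = 0.063), and DNAJB9 without Lamin A/C Kd replicate 1 (0.63, limma adjusted p = 0.0566).

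CHAC1, an enzyme that degrades glutathione, and HERPUD1, a membrane protein of ER-associated degradation, came next and did not pass. CHAC1 was 4.21, 4.35 and 4.19 in Control and 4.64, 4.68 and 4.65 upon Lamin A/C Kd, without overlap, and its log2 fold change was 0.41 (95% interval 0.14 to 0.67, limma adjusted p = 0.0638). HERPUD1 had the opposite sign, with 7.85, 7.78 and 7.85 in Control and 7.39, 7.40 and 7.65 upon knockdown (log2 fold change -0.34, 95% interval -0.61 to -0.08, limma adjusted p = 0.111). The HERPUD1 arrays did not overlap either. Over all genes tested the 2 groups did not overlap for 40.8% (15.6% higher and 25.2% lower), so that separation alone was common. Both passed when Lamin B2 Kd replicate 3 was left out of the shared estimate of the spread, at limma adjusted p of 0.0222 for CHAC1 and 0.0391 for HERPUD1, where 20.8% of all genes passed.

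HSPA5, the chief Hsp70 chaperone of the ER lumen, was 6.35, 6.39 and 6.71 in Control and 6.61, 6.56 and 6.71 upon Lamin A/C Kd. Its groups overlapped, and the log2 fold change was 0.14 (95% interval -0.17 to 0.46, limma adjusted p = 0.599). Its second probe gave 0.30 (0.01 to 0.58, limma adjusted p = 0.193) with no overlap.

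The factors of the eIF2 alpha arm and TRIB3 did not pass upon Lamin A/C Kd. ATF4 was 10.41, 10.37 and 10.54 in Control and 10.61, 10.51 and 10.53 upon knockdown, a log2 fold change of 0.11 (95% interval -0.21 to 0.42). Its second probe gave 0.15 (-0.12 to 0.42, limma adjusted p = 0.523), with 7.54, 7.60 and 7.69 upon knockdown above 7.42, 7.46 and 7.51 in Control. DDIT3, the factor linked to cell death under lasting ER stress, was 1.68, 1.57 and 1.31 in Control and 1.43, 1.61 and 1.64 upon knockdown, a log2 fold change of 0.04 (-0.30 to 0.38). ATF3 was 3.76, 3.64 and 3.61 in Control and 3.49, 3.39 and 3.82 upon knockdown, a log2 fold change of -0.10 (-0.41 to 0.21). On the brighter probe of each of these the groups overlapped, and the intervals leave room for changes of up to about 0.4 in size. TRIB3, a pseudokinase induced by ATF4 and CHOP, was 9.45, 9.44 and 9.53 in Control and 9.59, 9.66 and 9.67 upon knockdown. The TRIB3 groups did not overlap, as in 15.6% of all genes toward higher levels. The log2 fold change of TRIB3 was 0.17 (-0.18 to 0.51).

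ASNS, the asparagine synthetase, gave a different answer with each of its probes. The brighter was 8.75, 8.67 and 8.68 in Control and 8.70, 8.65 and 8.76 upon Lamin A/C Kd, a log2 fold change of 0.00 (95% interval -0.28 to 0.29). The dimmer was 0.90, 0.86 and 0.89 in Control and 1.37, 1.18 and 1.35 upon knockdown, a log2 fold change of 0.42 (0.06 to 0.78, limma adjusted p = 0.147). The files do not say which transcripts each probe reads.

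**Figure D1:**
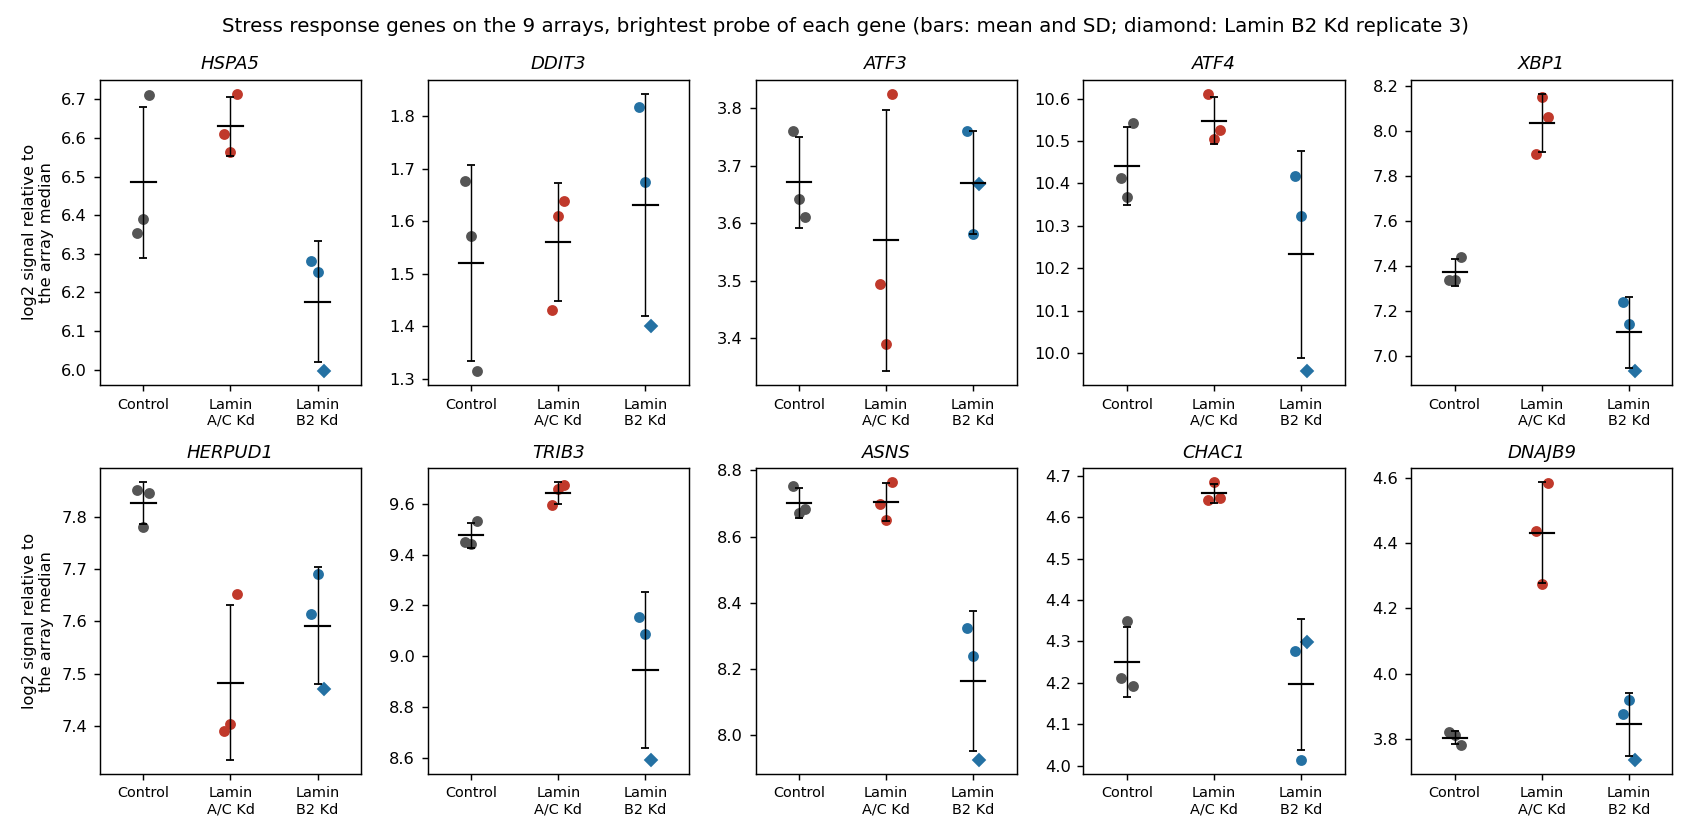
Log2 signal relative to the array median of the brightest probe of each member on the 9 arrays, with a y axis of its own in each panel. Points are arrays, horizontal bars are group means and whiskers are SD (n = 3), and the diamond is Lamin B2 Kd replicate 3. XBP1, DNAJB9, CHAC1 and TRIB3 stand above every Control array on all 3 Lamin A/C Kd arrays (15.6% of all genes), and HERPUD1 below (25.2%). ASNS, TRIB3, HSPA5, XBP1 and HERPUD1 stand below every Control array on all 3 Lamin B2 Kd arrays (27.2% of all genes).

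Upon Lamin B2 Kd, 0 of the 10 members passed the limma test, against 4.33% of the 22123 genes tested (0.447% higher and 3.88% lower). On the brightest probes, ASNS and TRIB3 had an unadjusted p under 0.05. On the second probes, TRIB3, HSPA5 and XBP1 did. None reached the 2-fold criterion, which 2.03% of all genes met. The median log2 fold change of the 10 members was -0.22, against -0.14 over all genes tested.

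ASNS, 8.75, 8.67 and 8.68 in Control, was 8.32, 8.24 and 7.93 upon Lamin B2 Kd. All 3 knockdown arrays were below Control, and replicate 3 was the lowest. The log2 fold change was -0.54 ± 0.13 (SE, n = 3 per group, unadjusted p = 0.00214, limma adjusted p = 0.0512). Without Lamin B2 Kd replicate 3 it was -0.42 with a limma adjusted p of 0.0426, so that ASNS then passed as the only member. The dimmer ASNS probe was 1.05, 1.02 and 0.48, a log2 fold change of -0.03 (95% interval -0.39 to 0.33). On that probe only replicate 3 was below the Control arrays.

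TRIB3 was 9.15, 9.09 and 8.59 upon Lamin B2 Kd, below all 3 Control arrays and lowest in replicate 3. The log2 fold change was -0.53 (95% interval -0.87 to -0.18, limma adjusted p = 0.0888), and -0.35 (limma adjusted p = 0.0627) without replicate 3. Its second probe gave -0.56 (limma adjusted p = 0.186).

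HSPA5 was 6.28, 6.25 and 6.0 upon Lamin B2 Kd, below the Control arrays, with a log2 fold change of -0.31 (limma adjusted p = 0.214). Its second probe gave -0.39 (limma adjusted p = 0.113). XBP1 was 7.24, 7.14 and 6.93, also below Control (-0.27, limma adjusted p = 0.230), and its second probe gave -0.33 (limma adjusted p = 0.191). HERPUD1 was 7.61, 7.69 and 7.47, below Control (-0.24, limma adjusted p = 0.262). In all of these the groups did not overlap, a pattern found toward lower levels in 27.2% of all genes tested, toward higher levels in 5.63% and in 32.9% either way. ATF4 was 10.42, 10.32 and 9.96, and overlapped with Control (-0.21, limma adjusted p = 0.371), while its second probe, at 7.38, 7.31 and 7.04, lay below Control (-0.22, limma adjusted p = 0.301). With replicate 3 left out, HSPA5, XBP1, HERPUD1 and ATF4 were at -0.22, -0.18, -0.17 and -0.07. The highest of their values over the 22 alternative settings were -0.08, -0.03, -0.02 and -0.01, and none of them passed in any setting.

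The remaining members lay near 0 upon Lamin B2 Kd. CHAC1 was 4.28, 4.01 and 4.30, DNAJB9 3.88, 3.92 and 3.74, ATF3 3.76, 3.58 and 3.67, and DDIT3 1.82, 1.67 and 1.4. Their log2 fold changes were -0.05, 0.04, 0.00 and 0.11, and each group overlapped with Control. The 95% intervals reached from -0.32 to 0.21 for CHAC1 and from -0.22 to 0.31 for DNAJB9. Without replicate 3, CHAC1 was at -0.11, DNAJB9 at 0.09 and DDIT3 at 0.23, and none of them passed. The level of all genes depended on the scaling here: with arrays shifted by their 75th percentile the median over all genes was 0.05 in place of -0.14. That shift moves all genes of an array alike, and with it ASNS was at -0.34, ATF3 at 0.19 and CHAC1 at 0.14.

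**Figure D2:**
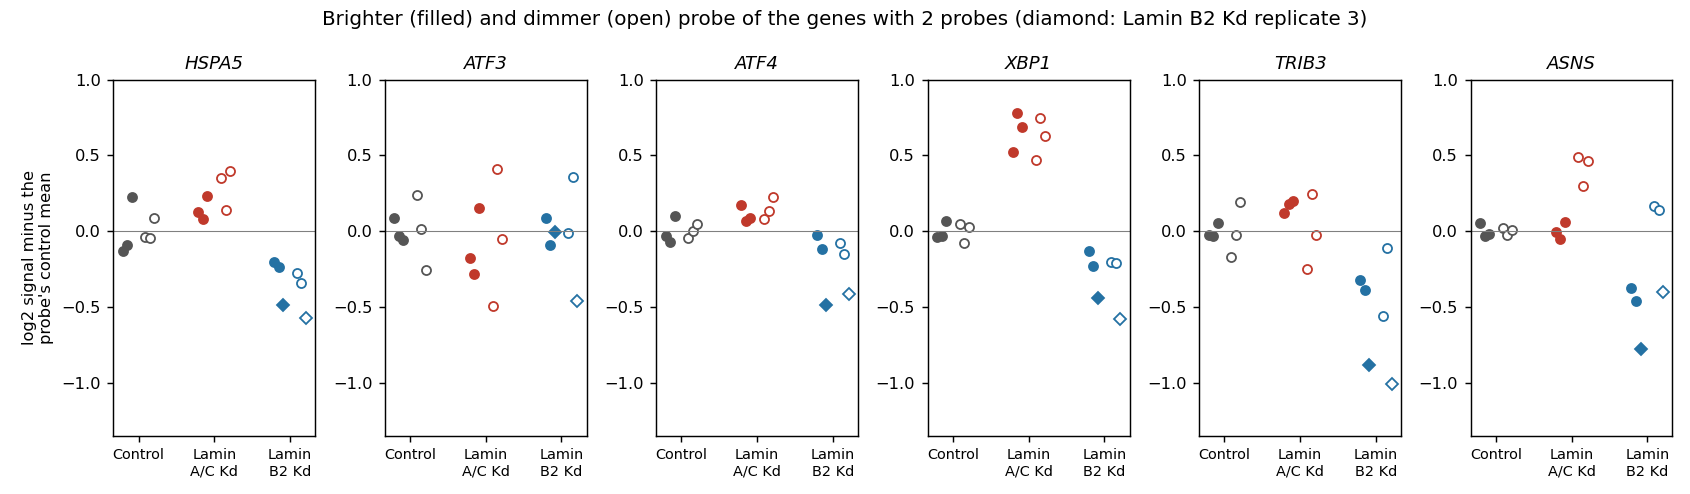
Log2 signal minus the probe's own Control mean on the 9 arrays, for the 6 members with 2 probes. Filled points are the brighter probe, open points the dimmer, and diamonds are Lamin B2 Kd replicate 3. The XBP1 probes moved alike and the ASNS probes did not.

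The 2 comparisons above share the 3 Control arrays, so that the members' values were set side by side and the knockdowns were also compared directly, without the Control levels. Here 5 of the 10 members passed, all of them higher upon Lamin A/C Kd than upon Lamin B2 Kd: XBP1, TRIB3, DNAJB9, ASNS and CHAC1. Over all 21852 genes tested, 11.1% passed with a higher level upon Lamin A/C Kd, 4.48% with a lower level and 15.6% in either direction. The 2-fold criterion was reached by 0 members and by 4.2% of all genes. The median log2 difference of the members was 0.46, against 0.05 over all genes tested.

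XBP1 differed most, by 0.93 ± 0.12 on the log2 scale (SE, n = 3 per group, limma adjusted p = 0.00201), 1.91-fold. It was above Control upon Lamin A/C Kd and below it upon Lamin B2 Kd. The latter did not pass on its own, and it depended on the processing, from -0.33 to -0.03 over the 22 alternative settings. The second probe gave 0.95 (limma adjusted p = 0.00292), and without Lamin B2 Kd replicate 3 the difference was 0.85 (limma adjusted p = 0.00213).

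TRIB3 differed by 0.70 ± 0.15 (SE, limma adjusted p = 0.0161) and ASNS by 0.54 ± 0.13 (SE, limma adjusted p = 0.0212). Upon Lamin B2 Kd both were below Control, and upon Lamin A/C Kd within 0.17 of it. Without Lamin B2 Kd replicate 3 the differences were 0.52 and 0.42, and both passed. TRIB3 lost its call without Lamin A/C Kd replicate 2 or 3 (0.69 and 0.68, limma adjusted p = 0.0584 and 0.0578). ASNS lost it without Lamin A/C Kd replicate 1, 2 or 3 (0.54, 0.57 and 0.51, limma adjusted p = 0.0666, 0.0596 and 0.0740). The second probes of TRIB3 and ASNS gave 0.55 (limma adjusted p = 0.144) and 0.45 (limma adjusted p = 0.0940).

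DNAJB9 differed by 0.59 ± 0.12 (SE, limma adjusted p = 0.0110) and CHAC1 by 0.46 ± 0.12 (SE, limma adjusted p = 0.0290). Upon Lamin B2 Kd both lay within 0.05 of Control, and upon Lamin A/C Kd above it. They differed by 0.53 and 0.51 without Lamin B2 Kd replicate 3, and both passed. The CHAC1 call was the least stable of the 5: it held in 10 of 22 alternative settings, and left out singly, 6 of the other arrays took it past the threshold (limma adjusted p = 0.0524 to 0.0977).

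HSPA5 differed by 0.45 (95% interval 0.14 to 0.76, limma adjusted p = 0.0557) on its brighter probe and by 0.69 (0.40 to 0.98, limma adjusted p = 0.00784) on its dimmer probe, which passed. ATF4 differed by 0.32 (0.00 to 0.63, limma adjusted p = 0.164). In HSPA5 and ATF4 every Lamin A/C Kd array was above every Lamin B2 Kd array, as it was in 21.9% of all genes tested (10.4% lower, 32.3% either way). HERPUD1, ATF3 and DDIT3 differed by -0.11, -0.10 and -0.07, with 95% intervals of -0.38 to 0.16, -0.41 to 0.21 and -0.41 to 0.27.

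**Figure D3:**
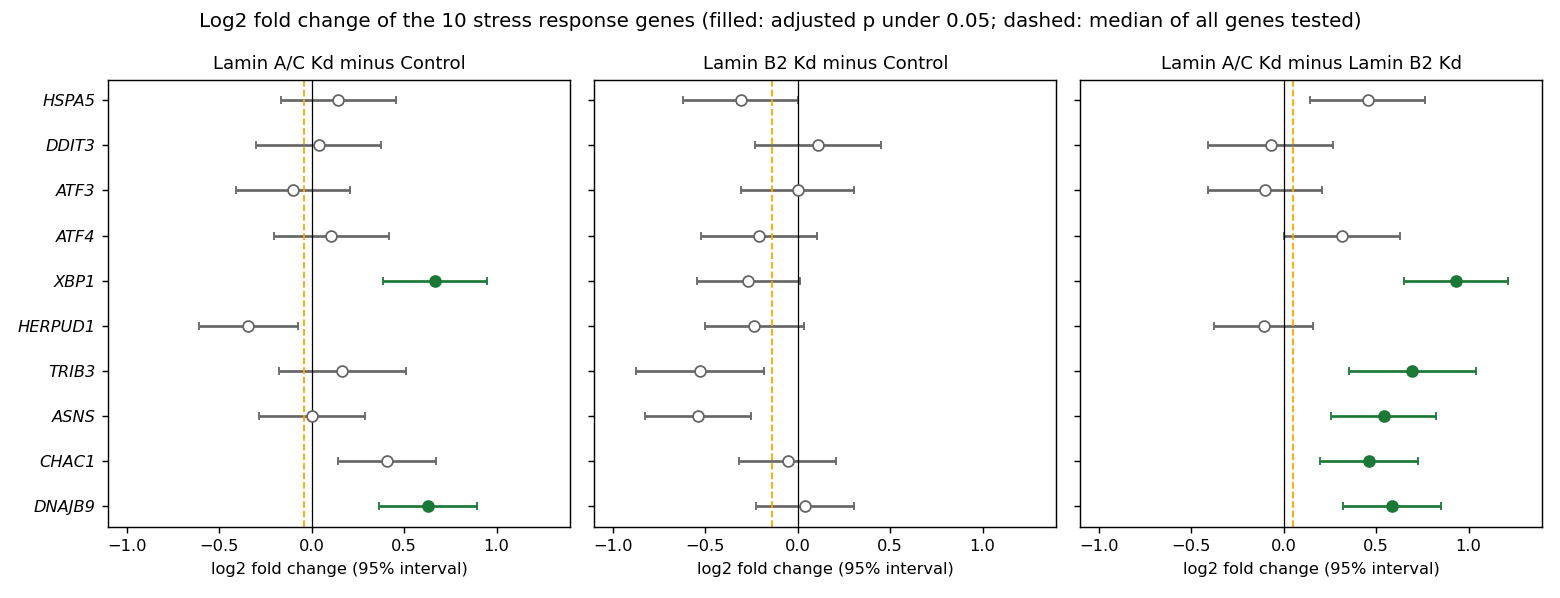
Log2 fold change of the 10 members (brightest probe) with its 95% interval in the 3 comparisons, n = 3 arrays per group. Filled points passed the limma test at an adjusted p under 0.05, and the dashed line is the median of all genes tested. XBP1 and DNAJB9 passed upon Lamin A/C Kd, none upon Lamin B2 Kd, and 5 between the knockdowns.

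The wider pathway was described by gene lists grouped by role, as counts and medians. Over all genes tested, 3.14% rose and 5.7% fell upon Lamin A/C Kd, 0.447% rose and 3.88% fell upon Lamin B2 Kd, and 11.1% were higher and 4.48% lower upon Lamin A/C Kd than upon Lamin B2 Kd. The medians over all genes were -0.04, -0.14 and 0.05 in this order. Amino acid enzymes and tRNA synthetases were kept as lists of their own, given below. The list of other ATF4 and CHOP targets holds genes for transcription, amino acid transport and cell death, and does not stand for all ATF4 targets. Upon Lamin A/C Kd, 6 of its 24 measured genes rose and 0 fell (3.14 and 5.7% of all genes), with a median log2 fold change of 0.23 against -0.04 over all genes. In Lamin B2 Kd cells 0 rose and 4 fell (0.447 and 3.88% of all genes), with a median of -0.12 against -0.14. That median changed sign with the scaling: with the shift by the 75th percentile and with quantile normalization 2 rose and 4 fell, with medians of 0.08 and 0.10 against 0.05 and 0.00 over all genes. Between the knockdowns, 9 of 23 were higher upon Lamin A/C Kd and 0 lower (11.1 and 4.48% of all genes), with a median of 0.41 against 0.05. Without Lamin B2 Kd replicate 3, these counts were 9 higher and 1 lower, 1 higher and 4 lower, and 10 higher and 1 lower, while the calls over all genes upon Lamin A/C Kd went from 686 higher and 1246 lower to 1610 and 2933. The rises upon Lamin A/C Kd numbered 2 when Control replicate 1 or 3, or replicate 2 of the knockdown, was left out, and 3 when Control replicate 2 or replicate 3 of the knockdown was. The falls upon Lamin B2 Kd numbered 1 without Control replicate 1 or 3, and 2 without Control replicate 2 or any of the Lamin A/C Kd arrays. Between the knockdowns 6 passed without any of the Control or Lamin A/C Kd arrays or Lamin B2 Kd replicate 2.

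NUPR1, a small stress-induced nuclear protein, moved furthest and in opposite directions. It was 4.56, 4.45 and 4.52 in Control, 6.28, 6.32 and 6.33 upon Lamin A/C Kd, and 3.06, 3.19 and 2.52 upon Lamin B2 Kd. The 3 groups were separate, and the Lamin A/C Kd arrays lay within 0.05 of each other. It rose by 1.80 ± 0.17 upon Lamin A/C Kd (SE, limma adjusted p = 0.000895) and fell by 1.58 ± 0.17 upon Lamin B2 Kd (SE, limma adjusted p = 0.00717), and the difference between the knockdowns was 3.38 (limma adjusted p = 6.19e-05). The rise passed in 22 of 22 alternative settings and the fall in 21. The value upon Lamin B2 Kd was -1.38 without replicate 3 (limma adjusted p = 0.00182), and the difference 3.18.

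JDP2 and ATF5, transcription factors of the bZIP family like ATF4, fell upon Lamin B2 Kd. JDP2 was 4.99, 4.94 and 5.08 in Control, 5.17, 5.28 and 5.02 upon Lamin A/C Kd, and 3.96, 4.11 and 3.59 upon Lamin B2 Kd, a fall of 1.12 (limma adjusted p = 0.00999). ATF5 was 3.56, 3.75 and 3.82 in Control, 4.0, 4.16 and 3.97 upon Lamin A/C Kd, and 2.74, 3.03 and 2.12 upon Lamin B2 Kd, where it fell by 1.08 (limma adjusted p = 0.0322). For both, the Lamin B2 Kd arrays were the lowest of the 9, and without replicate 3 the values were -0.97 for JDP2 and -0.83 for ATF5 (limma adjusted p = 0.00782 and 0.0192). The other ATF5 probes, at -0.92 and -0.88, gave limma adjusted p of 0.0715 and 0.0279. The ATF5 call was lost without any of the Control or Lamin A/C Kd arrays or Lamin B2 Kd replicate 1 (-1.16 to -1.02, limma adjusted p = 0.0542 to 0.142), and that of JDP2 without Control replicate 1 or 3 (-1.13 and -1.08, limma adjusted p = 0.0578 and 0.068).

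SLC7A11, the cystine transporter, rose upon Lamin A/C Kd. It was 0.87, 1.14 and 1.13 in Control, 1.83, 1.85 and 2.33 upon Lamin A/C Kd, and 1.39, 1.03 and 1.64 upon Lamin B2 Kd. The rise was 0.96 (limma adjusted p = 0.0184), and its second detected probe rose by 0.46 (limma adjusted p = 0.0400). In Lamin B2 Kd cells the value was 0.31 (limma adjusted p = 0.355), and the difference between the knockdowns, 0.65, did not pass (limma adjusted p = 0.0529). With Lamin B2 Kd replicate 3 left out, that difference was 0.80 and passed (limma adjusted p = 0.0239). The rise lost its call without any of the Control arrays and without replicate 2 or 3 of the knockdown (0.80 to 1.04, limma adjusted p = 0.0508 to 0.0837).

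**Figure D4:**
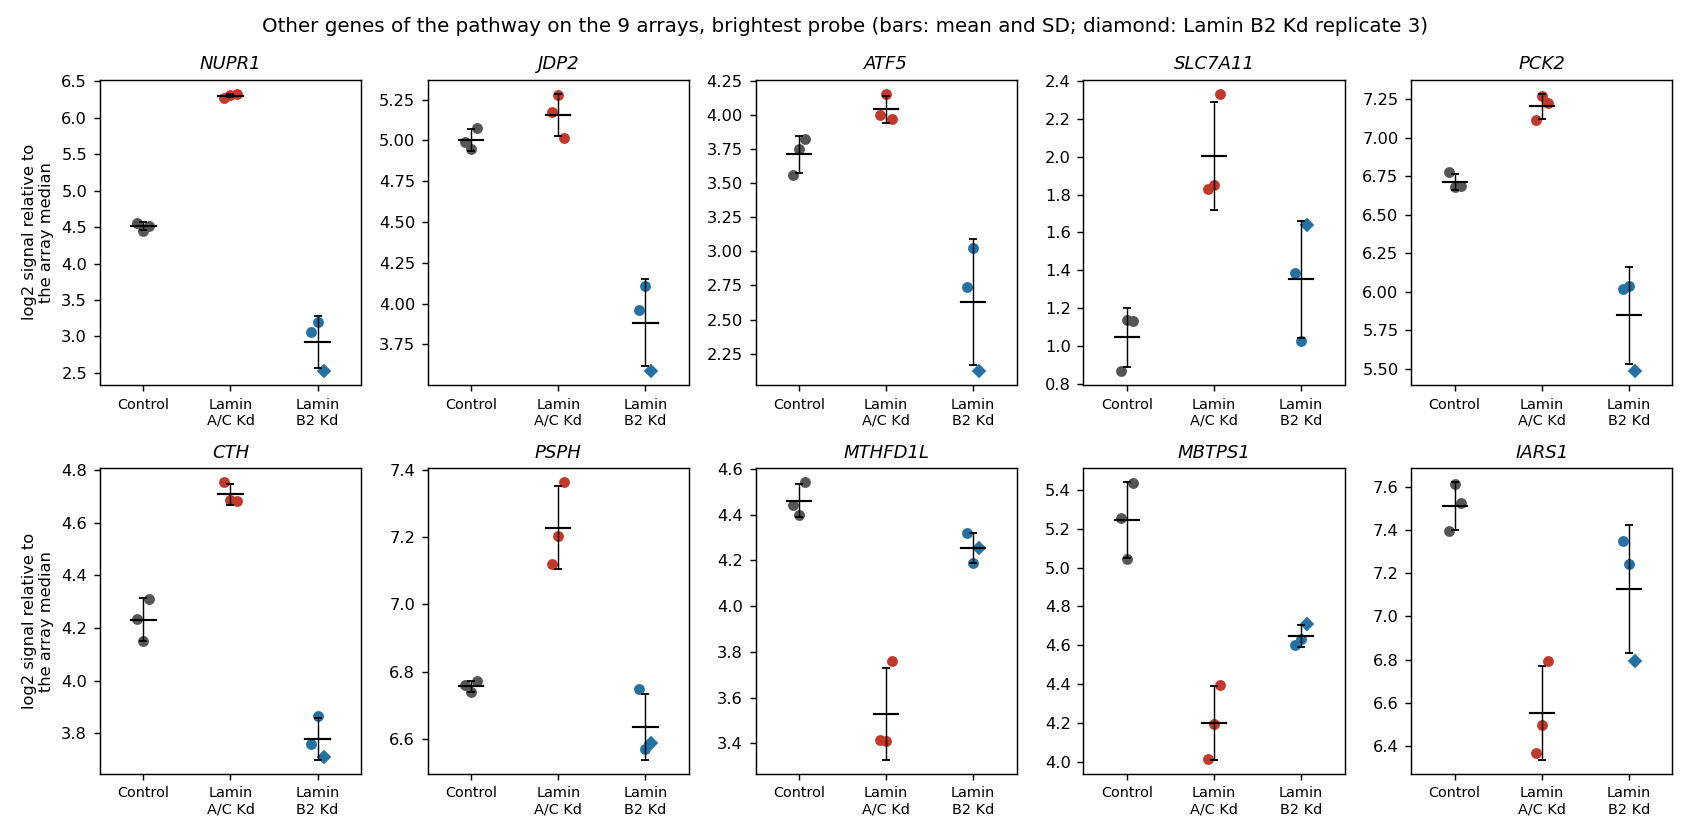
Log2 signal relative to the array median of 10 further genes of the pathway on the 9 arrays, brightest probe, with a y axis of its own in each panel. Points are arrays, horizontal bars are group means, whiskers are SD (n = 3) and the diamond is Lamin B2 Kd replicate 3. NUPR1, ATF5, CTH and PCK2 are separate in all 3 groups, with Lamin A/C Kd highest and Lamin B2 Kd lowest. MTHFD1L and MBTPS1 are also separate in all 3 groups, with Control highest and Lamin A/C Kd lowest.

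Enzymes that supply serine, glycine, proline and methyl groups, several of them ATF4 targets, were measured by 12 genes. Upon Lamin A/C Kd 2 rose and 1 fell, upon Lamin B2 Kd 0 rose and 2 fell, and between the knockdowns 5 were higher upon Lamin A/C Kd and 1 lower. The shares over all genes were 3.14 and 5.7%, 0.447 and 3.88%, and 11.1 and 4.48%. The medians were 0.12, -0.24 and 0.40, against -0.04, -0.14 and 0.05 over all genes. With normexp background correction 3 rose and 2 fell upon Lamin A/C Kd and 4 fell upon Lamin B2 Kd. CTH, which makes cysteine from cystathionine, was 4.24, 4.15 and 4.31 in Control, 4.75, 4.69 and 4.68 upon Lamin A/C Kd, and 3.76, 3.86 and 3.71 upon Lamin B2 Kd. It rose by 0.48 (limma adjusted p = 0.0248) and fell by 0.45 (limma adjusted p = 0.0482), and like NUPR1 its 3 groups were separate. Both calls of CTH were lost without any 1 of the Control or Lamin A/C Kd arrays (0.44 to 0.52, limma adjusted p = 0.0604 to 0.11, and -0.50 to -0.41, limma adjusted p = 0.0757 to 0.205). The fall of CTH also missed the threshold without Lamin B2 Kd replicate 1 or 2 and was -0.26 with the shift by the 75th percentile (limma adjusted p = 0.13), and it held in 7 of 22 settings. It was -0.42 without Lamin B2 Kd replicate 3 (limma adjusted p = 0.0486). PCK2, the mitochondrial PEP carboxykinase, was 6.77, 6.68 and 6.69 in Control, 7.11, 7.27 and 7.22 upon Lamin A/C Kd, and 6.02, 6.04 and 5.48 upon Lamin B2 Kd, where it fell by 0.87 (limma adjusted p = 0.0251). This call of PCK2 was lost without any 1 of the Control arrays or Lamin A/C Kd replicate 3 (-0.88 to -0.84, limma adjusted p = 0.0505 to 0.114), and without Lamin B2 Kd replicate 3 the value was -0.69 (limma adjusted p = 0.0120). Upon Lamin A/C Kd, PCK2 was at 0.49 and did not pass (limma adjusted p = 0.0895, and 0.00612 with that array left out). The second PCK2 probe gave 0.42 upon Lamin A/C Kd and -0.83 upon Lamin B2 Kd, and neither passed (limma adjusted p = 0.280 and 0.0662). Between the knockdowns CTH differed by 0.93 and PCK2 by 1.36, and both passed in 22 of 22 alternative settings.

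PSPH, the last enzyme of serine synthesis, and MTHFD1L, a mitochondrial folate enzyme, moved in opposite directions upon Lamin A/C Kd. PSPH was 6.76, 6.74 and 6.77 in Control and 7.12, 7.20 and 7.36 upon Lamin A/C Kd, a rise of 0.47 (limma adjusted p = 0.0333), and its other 2 probes gave 0.17 and 0.70 and did not pass. The rise of PSPH was lost without any 1 of the Control or Lamin A/C Kd arrays (0.40 to 0.53, limma adjusted p = 0.0695 to 0.121). MTHFD1L was 4.44, 4.40 and 4.54 in Control and 3.41, 3.41 and 3.76 upon Lamin A/C Kd, where it fell by 0.93 (limma adjusted p = 0.00450). The other 3 probes of MTHFD1L gave -0.76, -0.40 and -0.40, of which the last did not pass (limma adjusted p = 0.286). Neither gene passed upon Lamin B2 Kd, at -0.12 and -0.21. The other 2 PSPH probes were at -0.18 and 0.77 there (limma adjusted p = 0.288 and 0.152), the latter above Control without overlap. Between the knockdowns PSPH differed by 0.59 on its brightest probe, and by 0.36 and -0.07 on the other 2 (limma adjusted p = 0.00875, 0.0405 and 0.897). The rises of this list upon Lamin A/C Kd numbered 0 without any 1 of the Control or Lamin A/C Kd arrays. The falls upon Lamin B2 Kd numbered 0 without any 1 of the Control arrays or Lamin A/C Kd replicate 3 and 1 without any of the other arrays but Lamin B2 Kd replicate 3, while the fall of MTHFD1L passed in 22 of 22 settings.

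Of 13 stress sensors and regulators of eIF2 alpha, MBTPS1 fell upon Lamin A/C Kd, none passed upon Lamin B2 Kd, and EIF2AK1 was higher upon Lamin A/C Kd than upon Lamin B2 Kd. MBTPS1, the site-1 protease that cuts ATF6 and the sterol regulators, was 5.25, 5.04 and 5.43 in Control, 4.01, 4.19 and 4.39 upon Lamin A/C Kd, and 4.6, 4.63 and 4.71 upon Lamin B2 Kd. It fell by 1.04 ± 0.14 (SE, limma adjusted p = 0.00453) and passed in 22 of 22 settings. Its other 2 probes gave -1.08 (limma adjusted p = 0.00228) and -0.85 (limma adjusted p = 0.0598). In Lamin B2 Kd cells the brightest probe was at -0.59 (limma adjusted p = 0.0533), while the second passed at -0.69 (limma adjusted p = 0.0248). With replicate 3 left out the brightest was at -0.63 (limma adjusted p = 0.0615). EIF2AK1, the haem-regulated eIF2 alpha kinase, was at 0.09 and -0.47 in the knockdowns, and the difference between them was 0.56 (limma adjusted p = 0.0275), which held in 13 of 22 settings and was 0.46 without Lamin B2 Kd replicate 3 (limma adjusted p = 0.0388). The second probe of EIF2AK1 was at -0.17 and -0.48, and its difference of 0.31 did not pass (limma adjusted p = 0.173). With Lamin B2 Kd replicate 3 left out the list had 1 gene higher and 3 lower upon Lamin A/C Kd, and 1 higher and 2 lower between the knockdowns.

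Among 20 cytosolic aminoacyl-tRNA synthetases, which charge tRNAs with amino acids, 4 fell upon Lamin A/C Kd and 0 rose, against 5.7 and 3.14% of all genes: IARS1 by 0.96, TARS1 by 0.55, FARSB by 0.51 and NARS1 by 0.49 (limma adjusted p = 0.0123, 0.0173, 0.0434 and 0.0487). Upon that knockdown 16 of the 20 values were below 0, with a median of -0.19 against -0.04 over all genes. IARS1 was 7.39, 7.61 and 7.52 in Control and 6.37, 6.50 and 6.79 upon knockdown. The count of falls was 0 when Control replicate 2 or 3, or replicate 1 or 2 of the knockdown, was left out. It was 1 without Control replicate 1, 2 without Lamin B2 Kd replicate 2, and 6, with 1 higher, without Lamin B2 Kd replicate 3. With normexp background correction 9 fell, where 17.1% of all genes passed in either direction. None passed upon Lamin B2 Kd by limma (2 fell with that correction), with 20 of 20 values below 0 and a median of -0.30 against -0.14 over all genes, and 18 of 20 below 0 with the shift by the 75th percentile. AARS1 and LARS1 were higher upon Lamin A/C Kd than upon Lamin B2 Kd, and were named after their values were seen. That count was 0 without Lamin A/C Kd replicate 2 or 3 and 1 without Lamin A/C Kd replicate 1 or Lamin B2 Kd replicate 1.

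The chaperones and degradation machinery of the ER gave few calls. Of 17 ER chaperones and folding enzymes 0 passed in either knockdown against Control by limma, with medians of -0.09 and -0.37 against -0.04 and -0.14 over all genes, and 2 were higher upon Lamin A/C Kd than upon Lamin B2 Kd. With the array of the 2nd slide left out, 2 of them were higher and 3 lower upon Lamin A/C Kd. After normexp background correction 3 were lower upon Lamin A/C Kd and 5 upon Lamin B2 Kd, where 17.1 and 12.2% of all genes passed. With the shift by the 75th percentile 2 were higher upon Lamin A/C Kd. CALR, a calcium-binding lectin chaperone, was 7.86, 7.87 and 7.93 in Control, 7.90, 7.92 and 7.85 upon Lamin A/C Kd, and 7.59, 7.32 and 7.0 upon Lamin B2 Kd (-0.58, limma adjusted p = 0.0640). Between the knockdowns CALR differed by 0.59 (limma adjusted p = 0.0285), in 13 of 22 settings past the threshold, and by 0.43 without Lamin B2 Kd replicate 3 (limma adjusted p = 0.0234). PDIA4, a disulfide isomerase, was at -0.33 and -0.71 (limma adjusted p = 0.376 and 0.0910), the latter -0.47 without that array. Of 18 measured genes of ER-associated degradation and translocation, 0 passed in the 3 comparisons by limma, and without Lamin B2 Kd replicate 3, 2 were lower upon Lamin A/C Kd and 1 lower between the knockdowns. With normexp background correction 4 were lower upon Lamin A/C Kd. SEC61G, a subunit of the translocon, was at -0.49 (limma adjusted p = 0.0681) upon Lamin A/C Kd and -0.27 upon Lamin B2 Kd, and VIMP (SELS on the array) at -0.38 (limma adjusted p = 0.0993) and -0.01. The second VIMP probe had the other sign upon Lamin A/C Kd, 0.30 (limma adjusted p = 0.142).

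The 14 cytosolic heat shock proteins, the targets of the separate heat shock response, served as the nearest other stress response. None passed in either knockdown against Control, with medians of -0.10 and -0.28 against -0.04 and -0.14 over all genes, and HSPA1B was higher upon Lamin A/C Kd than upon Lamin B2 Kd (0.52, limma adjusted p = 0.0287). The HSPA1B difference passed in 13 of 22 settings, and its second probe gave 0.45 and did not pass (limma adjusted p = 0.0676). HSPA1B was at 0.02 and -0.50 against Control, and its signal may include that of its near-identical copy HSPA1A. HSPH1 was at -0.34 (limma adjusted p = 0.0743) and -0.25. With normexp background correction 2 of the list fell in each knockdown. All 14 values upon Lamin B2 Kd were below 0, against 5 above 0 with the shift by the 75th percentile.

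**Figure D5:**
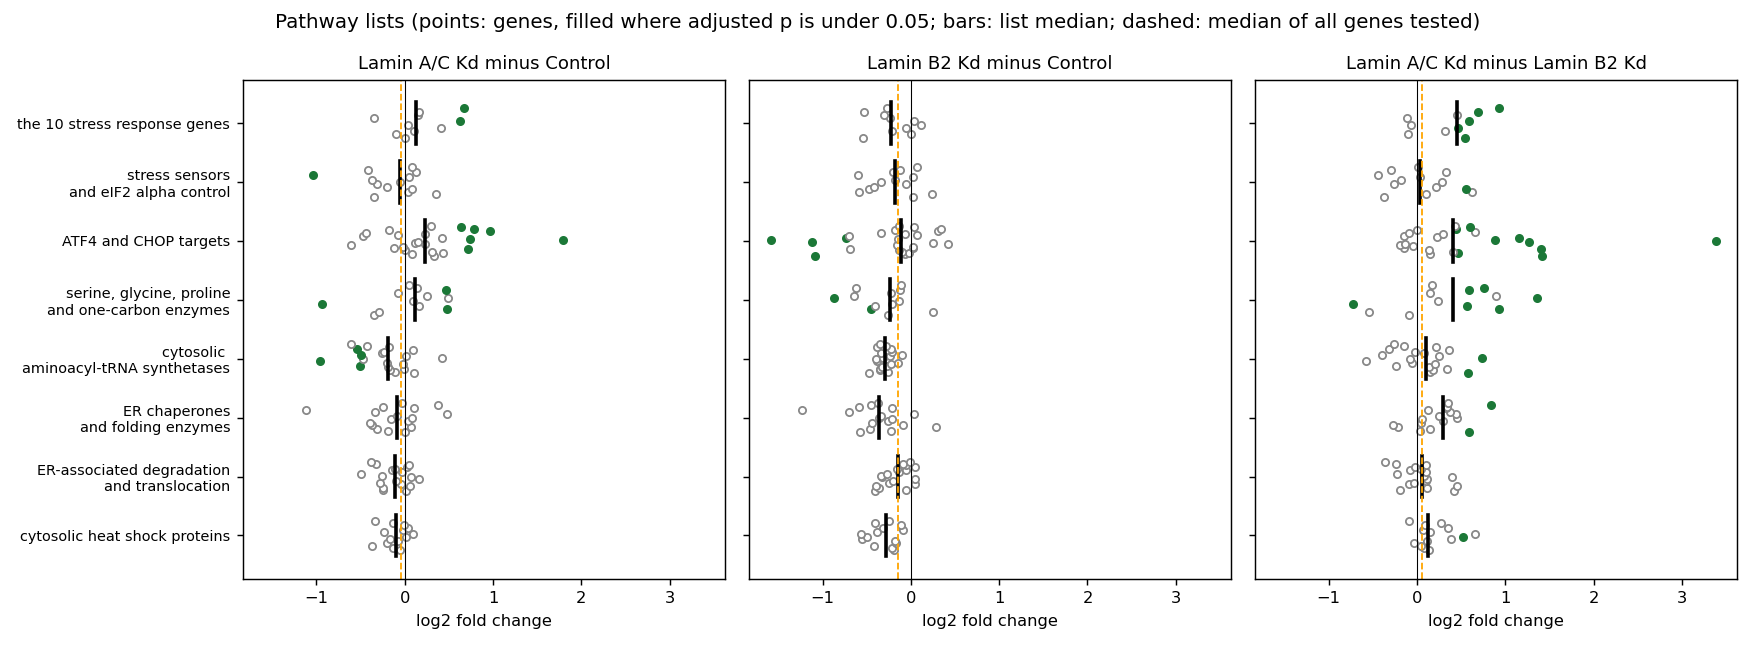
Log2 fold change of every measured gene of the members and of 7 pathway lists in the 3 comparisons, on a common x axis. Points are genes, filled where the limma adjusted p was under 0.05, black bars are list medians and the dashed line is the median of all genes tested. The point farthest to the right between the knockdowns is NUPR1, at 3.38.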

How the data were processed

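Each of the 9 arrays was deposited as the authors' Feature Extraction output (Agilent Feature Extraction 10.5, per the labels), in which the processed signal is a background-subtracted intensity, corrected for spatial trends on 8 arrays. A second table deposited by them holds log2 values that were scaled to the 50th percentile and centred per row, and it served as an alternative. Its Lamin B2 Kd columns were mapped to the group only, since their numbers differ from the titles. Other columns used are flags and names.

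Here log2 intensity minus the 50th percentile of the array was averaged per probe after dropping outlier spots (159 values with no other spot kept theirs), and none was saturated. A probe entered a test if all 3 arrays of either group had it well above background. The test was limma 3.58.1 under R 4.3.3, with files read by data.table (version 1.17.8), in a linear model over 9 arrays, two-sided, with Benjamini-Hochberg adjustment over all probes tested. Passing means an adjusted p under 0.05, and the methods' criterion, at least 2-fold with an unadjusted p under 0.05, was counted beside it. A gene took the value of its brightest tested probe. Depth is signal over background, and 3 arrays per group limit the precision. On simulated data, 89.5% of 200 probes changed by 1.5 on the log2 scale were recovered in each knockdown against Control (33131 and 33535 probes). No member changed by as much, and the recovery of smaller changes was not simulated. The simulated spread was the same on all 9 arrays, unlike the wider one of Lamin B2 Kd replicate 3.

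Members and lists were chosen with earlier results of these data known. The genes named are the members, the lamins and, from each list, up to 4 genes with the largest change among those passing in either knockdown against Control, or, where fewer than 2 passed, the 2 with the smallest unadjusted p. The labels call the replicates biological. Motifs and figures used Python, pandas and matplotlib. Alternatives were other scalings, background correction, the authors' table, other filters, blocks for replicate number and slide, array weights, only the groups compared, averaged probes and leaving out each array. The fit within the slide that holds all 3 groups is the same as that without Lamin B2 Kd replicate 3. It is counted under both names among the 22 settings. Dividing Lamin B2 Kd replicate 3 by its own detrending surface was added after the data were seen.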

Additional observations from a re-analysis of the deposited data

Results flagged for a closer look

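In 5 members the knockdowns differed from each other in a direct test of the difference (limma, 3 arrays per group), with a higher level upon Lamin A/C Kd. The log2 difference was 0.93 for XBP1 (adjusted p = 0.00201), 0.70 for TRIB3 (0.0161), 0.59 for DNAJB9 (0.0110), 0.54 for ASNS (0.0212) and 0.46 for CHAC1 (0.0290). Over all genes tested, 11.1% passed with a higher level upon Lamin A/C Kd and 15.6% in either direction. Without overlap and higher upon Lamin A/C Kd were 21.9% of all genes, and 32.3% did not overlap either way. In each of the 5 members all 3 Lamin A/C Kd arrays were above all 3 Lamin B2 Kd arrays. Without Lamin B2 Kd replicate 3 the differences were 0.85, 0.52, 0.53, 0.42 and 0.51. The array's part in the rest of each difference was not tested.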

How the results depend on the processing

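The members passing were 2 upon Lamin A/C Kd, 0 upon Lamin B2 Kd and 5 between the knockdowns. By the methods' criterion they were 0 in each. Upon Lamin A/C Kd, 4 passed with normexp background correction, with the slide as a random block, within the slide that holds all 3 groups and with array weights, where 17.1, 16.9, 20.8 and 25.7% of all genes passed against 8.83%. Upon Lamin B2 Kd, 2 passed with normexp and 1 with quantile normalization, with detection on all 9 arrays, with the slide as a random block, within that slide and with array weights, where 12.2% (normexp), 4.51, 5.76, 5.31, 4.61 and 4.01% of all genes passed against 4.33%. Between the knockdowns, 3 passed with no filter on dim probes, and 1 with only the 2 groups compared, where 6.86 and 7.8% of all genes passed against 15.6%. Leaving out 1 array gave 0 to 4, 0 to 1 and 2 to 5. The counts were 0 upon Lamin A/C Kd without any 1 of the Control arrays, 1 without Lamin A/C Kd replicate 1 or 2, and 4 without Lamin B2 Kd replicate 3. Between the knockdowns they were 3 without Lamin A/C Kd replicate 1 and 2 without replicate 2 or 3. The cause was not tested. Without any 1 of the Control arrays 2.68 to 3.21% of all genes passed upon Lamin A/C Kd. A group reduced to a pair of arrays was assumed to vary like the other groups.

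Changes of sign were found in values near 0 that passed in no setting. ATF3 upon Lamin B2 Kd was 0.19 with the 75th percentile, 0.20 with quantile normalization, 0.0067 with the authors' table, 0.036 with the detrended array, 4.4e-05 within the slide, and -0.046 to 0.044 without 1 array. CHAC1 upon Lamin B2 Kd was 0.14, 0.16 and, without 1 array, -0.11 to 0.037. DDIT3 upon Lamin A/C Kd was -0.035 with normexp, and -0.065 to 0.12 without 1 array. ASNS upon Lamin A/C Kd was -0.078 with normexp, -0.013 with the table, -0.0073 with array weights, and -0.028 to 0.029 without 1 array. DNAJB9 upon Lamin B2 Kd was -0.014 with normexp. DDIT3 between the knockdowns was -0.19 to 0.023 without 1 array. The difference in XBP1 between the knockdowns passed in 22 of 22 settings (0.81 to 1.0).

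Set numbers in the titles are shared by the groups. Only 1 of 9 same-numbered pairs of arrays deviated together with r above 0.1 (-0.071 to 0.14), so that the number was not taken as a pairing. The authors numbered the Lamin B2 Kd arrays differently in their scaled log2 values, so that this check cannot settle a pairing of that group. For Control replicates 1, 2 and 3, r with the same-numbered Lamin B2 Kd array was -0.018, 0.0039 and -0.071. The highest r with a differently numbered one was 0.085, 0.027 and 0.11. With the replicate block, by title numbers, 2, 0 and 3 members passed. In this setting 4.54, 0.664 and 10.6% of all genes passed, against 8.83, 4.33 and 15.6%. The calls of ASNS and CHAC1 between the knockdowns were lost. With the shift by the 75th percentile, 1623 of all genes were higher and 1680 lower upon Lamin A/C Kd (686 and 1246 without it), 398 and 665 upon Lamin B2 Kd (99 and 858), and 2507 and 2338 between the knockdowns (2426 and 980).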

Other observations

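Further genes of the pathway lists passed the test and were named after their values were seen. Over all genes tested, 3.14% rose upon Lamin A/C Kd and 3.88% fell upon Lamin B2 Kd. Between the knockdowns 11.1% were higher upon Lamin A/C Kd. Values without Lamin B2 Kd replicate 3 are not given for the genes named here. Upon Lamin A/C Kd, TNFRSF10B, the death receptor DR5, rose by 0.78, SESN2, a leucine sensor of the mTORC1 pathway, by 0.74, DDIT4, an inhibitor of mTORC1, by 0.72 and TXNIP, an inhibitor of thioredoxin, by 0.64 (limma adjusted p = 0.00568, 0.0136, 0.0445 and 0.0411). Upon Lamin B2 Kd, SLC1A4, a transporter of alanine, serine and cysteine, fell by 0.73 (limma adjusted p = 0.0382). Between the knockdowns, DDIT4 differed by 1.41, SLC1A4 by 1.16, SESN2 by 0.89, TXNIP by 0.60, BCL2L11, a pro-apoptotic BH3-only protein, by 0.46 and TNFRSF10B by 0.44, all higher upon Lamin A/C Kd. In the same comparison PYCR1, an enzyme of proline synthesis, differed by 0.76, GPT2, the mitochondrial alanine transaminase, by 0.57, SIL1, the nucleotide exchange factor of HSPA5, by 0.83, LARS1 by 0.73 and AARS1 by 0.58.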
